A study of Homo sapiens with 18 samples.

Results

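The E2F transcription factors and the pocket proteins that bind them are described here by 10 genes, taken by symbol from the 58381 rows of each of 3 deposited tables. They comprise the activators E2F1, E2F2 and E2F3, the repressors E2F4 and E2F5, the atypical repressors E2F7 and E2F8, and the pocket protein genes RB1, RBL1 (p107) and RBL2 (p130). RNA was sequenced from TC-32, TC-71 and A673, established human Ewing sarcoma cell lines that carry the fusion EWSR1::FLI1. Each line was transfected at 20 nM with an siRNA against FLI1 (siFLI1), used to deplete the fusion, or with a negative control siRNA (siNeg), and each of the 6 groups has 3 libraries. The columns of TC-32 and TC-71 name a time of 48 h, and those of A673 name none. Each line is 1 culture model of the tumour, with no normal cell beside it, and the siRNA targets FLI1 sequence, so a fall of FLI1 reads covers the fusion and any FLI1 itself. The series text names the line ES-5838 and the siRNA siERG as well, which were not analysed here. The line of the TC-32 and TC-71 columns was read from the table that holds them.

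Activator E2Fs bind DNA with a DP partner and switch on the genes of DNA replication as a cell passes from G1 into S phase. Pocket proteins hold E2Fs in check until cyclin-dependent kinases phosphorylate them: RB1 mostly binds the activators, whereas RBL1 and RBL2 join E2F4 or E2F5 and the MuvB core in the DREAM complex, which silences cell cycle genes in resting cells. E2F7 and E2F8 bind DNA without a DP partner or a pocket protein and repress E2F targets late in S phase, and several genes of the family are themselves E2F targets.

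The windows before the start sites of some members carry letters by which E2Fs are known, and those of others do not. RefSeq start sites on GRCh38.p14 were found for 8 of the 10 members, at 10 start sites, and E2F5 and E2F8 had no entry. Within the 250 bases before each start, both strands were searched for TTTCGCGC, TTTGGCGC, TTTCCCGC or TTTGCCGC, which 2.79% of 35116 such windows hold, and 0.122% hold at least 2 times. E2F1 and RBL1 each had 2 matches, E2F2 had 1 and the first start site of E2F3 had 1. No match to these letters lay in the windows of E2F4, E2F7, RB1 or RBL2, or of the second E2F3 start. The RB1 entry starts inside the gene. The windows of RBL2 and of the second E2F3 start also lie inside the annotated locus, so they are not sequence upstream of the gene. The 100 bases before the start are shown for the 4 genes with a match and for E2F7, with the matches in capitals, 5′ to 3′ on the gene's strand.
E2F1 chr20:33686386-33686485 (- strand): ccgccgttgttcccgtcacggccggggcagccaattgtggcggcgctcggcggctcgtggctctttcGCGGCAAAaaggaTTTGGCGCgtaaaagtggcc
E2F2 chr1:23531234-23531333 (- strand): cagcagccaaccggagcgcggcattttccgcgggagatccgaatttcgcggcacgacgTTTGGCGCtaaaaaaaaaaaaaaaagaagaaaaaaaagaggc
E2F3 chr6:20401779-20401878 (+ strand): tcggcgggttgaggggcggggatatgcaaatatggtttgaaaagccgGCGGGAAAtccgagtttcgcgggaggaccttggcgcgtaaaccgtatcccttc
RBL1 chr20:37095998-37096097 (- strand): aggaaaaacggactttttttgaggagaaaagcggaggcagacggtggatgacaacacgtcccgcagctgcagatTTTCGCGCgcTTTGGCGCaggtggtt
E2F7 chr12:77065570-77065669 (- strand): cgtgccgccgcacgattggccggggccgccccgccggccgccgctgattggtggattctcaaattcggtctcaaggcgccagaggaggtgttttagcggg
In all, 5 letter sets were searched, and the other sets gave these matches. TTTGAA, the core of the CHR element bound by MuvB, lay once before the first start of E2F3 and in 13.3% of all windows. CCAAT lay 4 times before E2F7 and before the first E2F3 start, 3 times before E2F1 and 1 time before the second RBL2 start, against 32% of windows with any. The ETS letters CCGGAAG lay once before E2F7 (8.52% of windows), and GGAAGGAA lay once before the second E2F3 start (3.06% of windows). A match is a run of letters, not a measured binding site.

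Values below are CPM, read counts relative to library size after TMM scaling, and a gene passed the test at an edgeR adjusted p under 0.05 over all genes tested. TC-32 libraries held 24102487 to 33669271 counts, TC-71 libraries 19685354 to 37234528 and A673 libraries 114564479 to 120993595, with member counts of 39 to 12199. The labels do not say whether libraries of a group came from separate cultures, so each p measures the spread between these libraries, which may be technical. FLI1, the siRNA target, fell in each line: 48.9% of the siNeg level was left in TC-32 (log2 fold change -1.03, SE 0.0637, edgeR adjusted p = 1.85e-13), 35.9% in TC-71 (log2 fold change -1.47, SE 0.0684, edgeR adjusted p = 8.88e-18) and 23.5% in A673 (log2 fold change -2.09, SE 0.0419, edgeR adjusted p = 2.02e-16). Of 6 Ewing sarcoma markers, all were detected in TC-32 and A673, and in TC-71 CD99, which has 2 annotated copies, was listed at 0. Other cell types' markers were low but some moved with siFLI1, and their part in the results was not tested. Summed levels of 4 immune markers stayed at or below 0.803 CPM, with CD3E at 0 in TC-32 and A673, and CD14 was called higher in A673 (1.43). Those of 3 endothelial markers spanned 2.15 to 2.89 CPM (siNeg) and 1.45 to 2.11 CPM (siFLI1) in TC-32, 0 to 0.111 and 0.377 to 0.688 in TC-71 and 0.705 to 1.05 and 1.83 to 2.08 in A673. They went both ways: CDH5 was called higher in TC-32 (2.28) and A673 (2.06), and PECAM1 lower in both (-2.28 and -1.10). VWF was called higher in A673 (2.77). Summed levels of 3 epithelial markers spanned 1.96 to 2.06 CPM (siNeg) and 4.83 to 6.33 CPM (siFLI1) in TC-32 (CDH1 called higher, 4.74, and KRT5 lower, -0.97), 0.590 to 1.15 and 0.696 to 1.03 in TC-71 and 0.0246 to 0.135 and 0.301 to 0.350 in A673. In A673, KRT5 was called higher from 0 counts in siNeg, so no fold is given. In bulk RNA, fewer cells in a cycle phase and less RNA per cell cannot be told apart.

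Most of the family fell when FLI1 was depleted, and the falls were largest in TC-32. All 10 members passed the low-count filter in each line. In TC-32, 10 of 10 were lower and 0 higher, where 81.4% of all 16227 genes tested passed the test, 40.1% lower and 41.3% higher. In TC-71, 7 of 10 were lower and 0 higher, where 71.9% of 17085 genes passed, 35% lower and 36.8% higher. In A673, 7 of 10 were lower and 1, E2F4, was higher, where 71% of 18444 genes passed, 35.4% lower and 35.6% higher. The siRNA groups did not overlap for 9, 7 and 8 members of TC-32, TC-71 and A673 (in that order), against 82.6%, 73.8% and 73.6% of genes, a share near the background. Falls of at least 2-fold were called for 6, 5 and 4 members, against 15.6%, 9.38% and 9.87% of genes. Genes near that cut crossed it under other settings or with a library left out. E2F8 in A673, counted at -1.002, ran from -1.11 to -0.97, and E2F3 in TC-32, not counted at -0.99, from -1.06 to -0.94. The median over the members was -1.80, -1.12 and -0.57 on the log2 scale in that order of lines, against 0.02, 0.02 and -0.0066 over all genes.

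**Figure D1:**
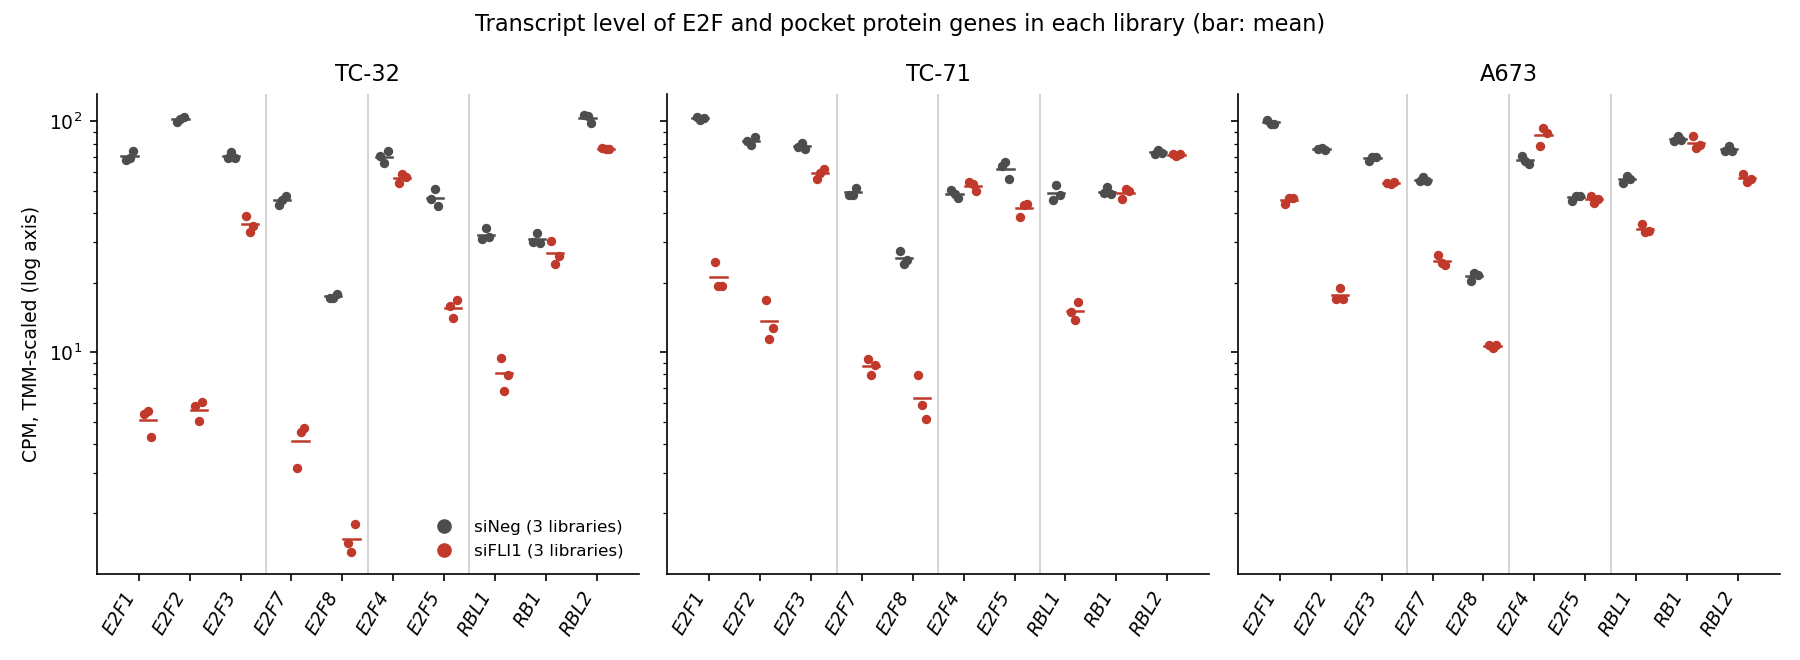
TMM-scaled CPM (log axis) of each member in each library, siNeg and siFLI1, with 3 libraries and a bar for the mean per group, for TC-32, TC-71 and A673. E2F1, E2F2, E2F7, E2F8 and RBL1 sit lower in every siFLI1 library of each line, while RB1 overlaps between the siRNAs in each line.

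Among the activators, E2F1 and E2F2 were the most depleted. E2F1, whose locus lies at chr20:33675477-33686385 (minus strand, GRCh38), drives entry into S phase. In TC-32, E2F1 stood at 67.6, 68.9 and 74.5 CPM in siNeg and at 5.40, 5.55 and 4.30 CPM in siFLI1 (log2 fold change -3.79, SE 0.0830, edgeR adjusted p = 1.54e-22). In TC-71, E2F1 stood at 104, 101 and 103 CPM in siNeg and at 24.6, 19.2 and 19.4 CPM in siFLI1 (log2 fold change -2.30, SE 0.0690, edgeR adjusted p = 1.18e-20). In A673, E2F1 stood at 101, 97.3 and 97.7 CPM in siNeg and at 43.8, 46.4 and 46.3 CPM in siFLI1 (log2 fold change -1.12, SE 0.0410, edgeR adjusted p = 4.44e-13). Every siFLI1 library was below every siNeg library in each line, and 7.23%, 20.5% and 46% of the level was left. E2F2 (chr1:23506438-23531233, minus strand), a close relative of E2F1, fell further still. In TC-32, E2F2 stood at 99.1, 102 and 104 CPM in siNeg and at 5.83, 5.02 and 6.06 CPM in siFLI1 (log2 fold change -4.18, SE 0.0721, edgeR adjusted p = 1.96e-24). In TC-71, E2F2 stood at 81.9, 78.5 and 85.2 CPM in siNeg and at 16.9, 11.4 and 12.8 CPM in siFLI1 (log2 fold change -2.59, SE 0.0878, edgeR adjusted p = 4.32e-17). In A673, E2F2 stood at 75.5, 76.3 and 74.9 CPM in siNeg and at 17, 19 and 17 CPM in siFLI1 (log2 fold change -2.10, SE 0.0488, edgeR adjusted p = 1.29e-15). Its groups did not overlap either. The level left was 5.54%, 16.7% and 23.4%. E2F3 (chr6:20401879-20493714, plus strand) fell the least of the activators. It went from 70.7 ± 2.17 to 35.8 ± 2.95 CPM in TC-32 (SD, n = 3; log2 fold change -0.99, SE 0.0608, edgeR adjusted p = 1.86e-13), 77.8 ± 2.40 to 59.4 ± 2.90 in TC-71 and 69 ± 1.62 to 54 ± 0.707 in A673, with no overlap in any line. The edgeR adjusted p was 1.48e-07 in TC-71 (log2 fold change -0.39) and 6.09e-07 in A673 (-0.35).

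The atypical repressors fell beside the activators. E2F7 lies at chr12:77021248-77065569 on the minus strand. In TC-32, E2F7 stood at 43.3, 45.5 and 47.6 CPM in siNeg and at 3.14, 4.52 and 4.70 CPM in siFLI1 (log2 fold change -3.45, SE 0.0979, edgeR adjusted p = 1.89e-19). In TC-71, E2F7 stood at 48.1, 48 and 51.4 CPM in siNeg and at 9.37, 7.96 and 8.81 CPM in siFLI1 (log2 fold change -2.50, SE 0.0748, edgeR adjusted p = 1.96e-22). In A673, E2F7 stood at 54.8, 57.3 and 54.9 CPM in siNeg and at 26.2, 24.4 and 23.7 CPM in siFLI1 (log2 fold change -1.17, SE 0.0471, edgeR adjusted p = 1.53e-12). No library of one siRNA reached the other. E2F8 (chr11:19224063-19241620, minus strand), its partner in repression, had the lowest counts of the members. In TC-32, E2F8 stood at 17.2, 17.2 and 17.9 CPM in siNeg and at 1.49, 1.37 and 1.79 CPM in siFLI1 (log2 fold change -3.49, SE 0.119, edgeR adjusted p = 1.13e-18). In TC-71, E2F8 stood at 27.4, 24.1 and 25.1 CPM in siNeg and at 7.98, 5.93 and 5.12 CPM in siFLI1 (log2 fold change -2.04, SE 0.110, edgeR adjusted p = 1.56e-14). In A673, E2F8 stood at 20.3, 22.1 and 21.5 CPM in siNeg and at 10.7, 10.5 and 10.8 CPM in siFLI1 (log2 fold change -1.0, SE 0.0521, edgeR adjusted p = 4.16e-11). Its groups did not overlap, and 8.90%, 24.8% and 49.9% of the level was left. By point estimate, TC-32 was the most and A673 the least affected line for E2F1, E2F2, E2F3, E2F5, E2F7, E2F8 and RBL1. For E2F3, TC-71 and A673 were close (-0.39 and -0.35). FLI1 itself fell least in TC-32 and most in A673.

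E2F4, the main E2F of quiescent DREAM complexes (chr16:67192155-67198918, plus strand), moved in opposite directions between lines. In TC-32, E2F4 stood at 70.5, 66.1 and 74 CPM in siNeg and at 53.9, 59.3 and 57.4 CPM in siFLI1 (log2 fold change -0.30, SE 0.0566, edgeR adjusted p = 3.43e-05). In TC-71, E2F4 stood at 50.3, 48.6 and 46.6 CPM in siNeg and at 54.6, 53.4 and 49.6 CPM in siFLI1 (log2 fold change 0.11, SE 0.0569, edgeR adjusted p = 0.0748). In A673, E2F4 stood at 70.7, 67.5 and 65.3 CPM in siNeg and at 78.4, 93.2 and 88.7 CPM in siFLI1 (log2 fold change 0.35, SE 0.0553, edgeR adjusted p = 2.71e-05). It was lower in every siFLI1 library of TC-32 and higher in every one of A673, while the TC-71 groups overlapped. Without the third siFLI1 library of TC-71, the rise there passed the test (0.16, edgeR adjusted p = 0.0207). E2F5, its close relative (chr8:85177154-85217158, plus strand), had 18.8% of its exonic bases opposite RBIS or an unnamed gene, so a share of its reads may belong there if the authors' counting did not use strand. In TC-32, E2F5 stood at 45.8, 50.8 and 42.9 CPM in siNeg and at 15.8, 14.1 and 16.7 CPM in siFLI1 (log2 fold change -1.58, SE 0.0765, edgeR adjusted p = 1.85e-15). In TC-71, E2F5 stood at 63.7, 66.7 and 56.1 CPM in siNeg and at 38.5, 43.4 and 43.9 CPM in siFLI1 (log2 fold change -0.56, SE 0.0646, edgeR adjusted p = 1.18e-08). In A673, E2F5 stood at 45.2, 47.5 and 47.5 CPM in siNeg and at 47.6, 44.4 and 45.9 CPM in siFLI1 (log2 fold change -0.02, SE 0.0434, edgeR adjusted p = 0.645). TC-32 and TC-71 did not overlap and A673 did. With library size alone in place of TMM, the A673 value was -0.13 (edgeR adjusted p = 0.0154), and that scaling moved the A673 median of all genes to -0.11.

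Of the pocket proteins, RBL1 fell in each line and RBL2 in TC-32 and A673, while RB1 passed the test in TC-32 with overlapping groups. RBL1 (p107; chr20:36996349-37095997, minus strand) is itself a product of E2F-driven transcription. In TC-32, RBL1 stood at 30.9, 34.4 and 31.5 CPM in siNeg and at 9.47, 6.80 and 7.99 CPM in siFLI1 (log2 fold change -2.01, SE 0.0933, edgeR adjusted p = 2.53e-15). In TC-71, RBL1 stood at 45.6, 52.9 and 47.7 CPM in siNeg and at 15, 13.8 and 16.5 CPM in siFLI1 (log2 fold change -1.68, SE 0.0741, edgeR adjusted p = 2.28e-18). In A673, RBL1 stood at 54, 57.9 and 56 CPM in siNeg and at 36, 33.1 and 33.6 CPM in siFLI1 (log2 fold change -0.71, SE 0.0462, edgeR adjusted p = 7.68e-10). Its groups did not overlap in any line. RB1, the retinoblastoma protein gene (chr13:48303744-48599436, plus strand), stayed near its control level. In TC-32, RB1 stood at 29.9, 32.8 and 29.8 CPM in siNeg and at 30.4, 24.1 and 26.2 CPM in siFLI1 (log2 fold change -0.20, SE 0.0767, edgeR adjusted p = 0.0195). In TC-71, RB1 stood at 48.8, 51.8 and 48.2 CPM in siNeg and at 46.2, 50.6 and 49.6 CPM in siFLI1 (log2 fold change -0.02, SE 0.0569, edgeR adjusted p = 0.780). In A673, RB1 stood at 81.9, 86.4 and 83.2 CPM in siNeg and at 86.2, 76.6 and 79 CPM in siFLI1 (log2 fold change -0.06, SE 0.0462, edgeR adjusted p = 0.279). The groups overlapped in each line. The TC-32 call was lost with library size alone (-0.16, edgeR adjusted p = 0.0713) and without siNeg library 2, siFLI1 library 2 or siFLI1 library 3 (adjusted p = 0.0890, 0.0979 and 0.0660). In A673 it was called lower with library size alone (-0.16, edgeR adjusted p = 0.00554) and without siFLI1 library 1 (-0.10, adjusted p = 0.0115). RBL2 (p130; chr16:53433977-53491648, plus strand), the pocket protein of resting cells, has 16.4% of its exonic bases opposite AKTIP or an unnamed gene. In TC-32, RBL2 stood at 106, 105 and 98.3 CPM in siNeg and at 76.9, 75.7 and 75.5 CPM in siFLI1 (log2 fold change -0.44, SE 0.0488, edgeR adjusted p = 1.20e-08). In TC-71, RBL2 stood at 72, 74.9 and 72.7 CPM in siNeg and at 71.9, 71 and 72.1 CPM in siFLI1 (log2 fold change -0.03, SE 0.0492, edgeR adjusted p = 0.606). In A673, RBL2 stood at 74.4, 78.1 and 74.6 CPM in siNeg and at 59.1, 54.4 and 56.1 CPM in siFLI1 (log2 fold change -0.42, SE 0.0430, edgeR adjusted p = 2.19e-07). Its groups overlapped in TC-71 only among the 3 lines.

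**Figure D2:**
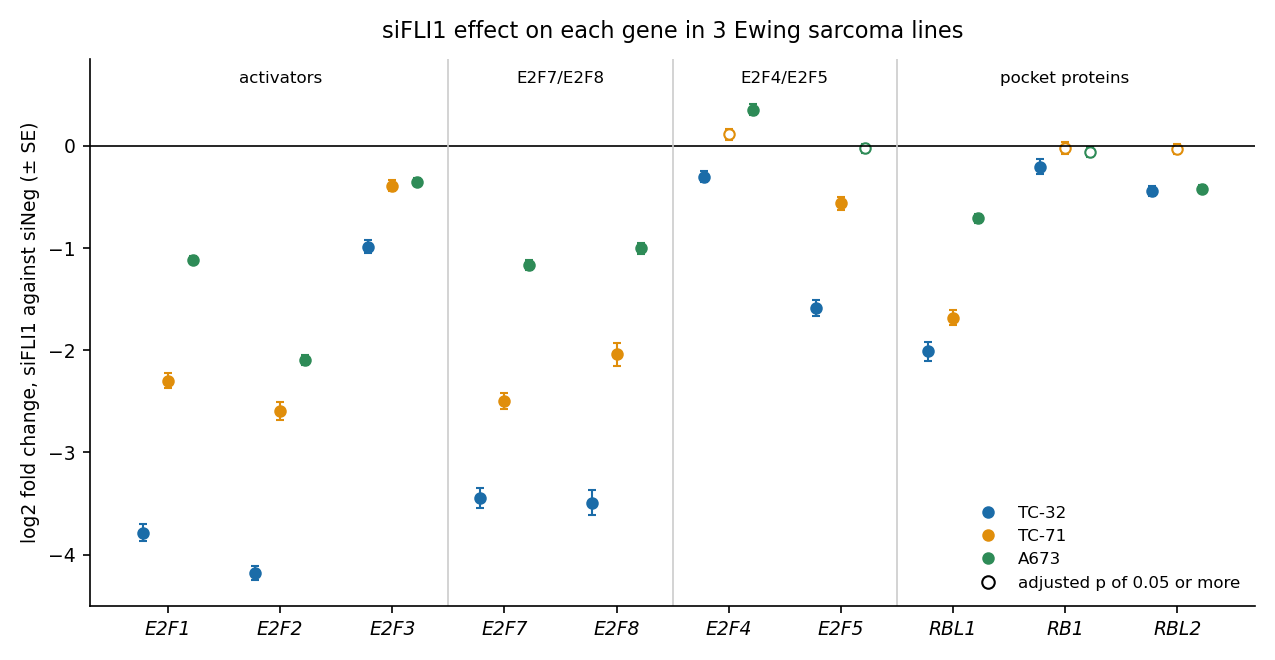
Log2 fold change of each member, siFLI1 against siNeg, with its SE in TC-32, TC-71 and A673, where open points mark an adjusted p of 0.05 or more. E2F2 reaches -4.18 in TC-32, and E2F4 ranges from -0.30 in TC-32 to 0.35 in A673.

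The sizes of these changes differed between the lines for most members. Interaction contrasts over all 18 libraries, in one model of 19610 genes, called 8 of 10 members different between TC-32 and A673, where 62.1% of genes were. Between TC-32 and TC-71 they called 9 of 10 (53.6% of genes), and between A673 and TC-71 8 of 10 (51.6%). The log2 fold change of E2F1 in TC-32 minus that in A673 was -2.64 (edgeR adjusted p = 2.59e-21), and minus that in TC-71 it was -1.50 (adjusted p = 1.67e-13). The E2F4 difference was -0.63 between TC-32 and A673 (edgeR adjusted p = 1.93e-08). E2F4 thus differed in sign as well as in size. RB1 was the member whose contrasts all missed the threshold, at -0.12, -0.19 and -0.07 for TC-32 minus A673, TC-32 minus TC-71 and A673 minus TC-71. The E2F3 contrast between A673 and TC-71 was 0.00094 (edgeR adjusted p = 1.00) and that of RBL2 between TC-32 and A673 0.01 (adjusted p = 0.961). Some contrasts rested on the settings or on single libraries. The RBL1 contrast between TC-32 and TC-71 (-0.34, adjusted p = 0.0167) and the E2F4 contrast between A673 and TC-71 (0.21, adjusted p = 0.0311) were lost under other settings. For RBL1 these were RLE factors (adjusted p = 0.0597), library size alone (0.0578), DESeq2 (0.0568), and the fits without TC-32 siFLI1 library 2 (0.123) or TC-71 siFLI1 library 3 (0.0781). For E2F4 they were library size alone (0.12), limma-voom (0.0547), the replicate block (0.0600) and leaving out any 1 of TC-71 siNeg 1 or 2, TC-71 siFLI1 2 or 3, A673 siNeg 2 or 3, or A673 siFLI1 2 or 3 (0.0555 to 0.147). RB1 showed the opposite pattern, and its contrasts passed without TC-32 siFLI1 library 1 (TC-32 minus A673 -0.21, edgeR adjusted p = 0.0330, and TC-32 minus TC-71 -0.29, adjusted p = 0.00614), and the latter also without TC-71 siFLI1 library 1 (-0.24, adjusted p = 0.0355).

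Activators and repressors were then compared within each library. The mean log2 CPM of E2F1, E2F2 and E2F3 minus that of E2F4 and E2F5 changed with siFLI1 by -2.04 (TC-32; pooled SD 0.0855), -1.54 (TC-71; 0.141) and -1.35 (A673; 0.0141), with no overlap between siRNAs. The set means hide E2F3, whose fall was smaller than that of E2F5 in TC-32 (-0.99 against -1.58) and TC-71 (-0.39 against -0.56), a difference between genes that was not tested. Against E2F7 and E2F8 the difference was smaller and, on this measure, changed sign between lines: 0.50 (TC-32; pooled SD 0.199), 0.50 (TC-71; 0.0654) and -0.11 (A673; 0.0591). Relative to the siNeg mean, the siFLI1 libraries of A673 lay at -0.19, -0.046 and -0.087, and those of TC-32 at 0.79, 0.46 and 0.24. On the summed CPM of each set the A673 value was 0.064, and those of TC-32 and TC-71 were 1.09 and 0.84. The set values hide E2F3 here too. In TC-32, E2F1 and E2F2 (-3.79 and -4.18) each fell further than E2F7 and E2F8 (-3.45 and -3.49), and E2F3 fell less (-0.99). In TC-71, E2F1 and E2F2 changed by -2.30 and -2.59, E2F7 and E2F8 by -2.50 and -2.04, and E2F3 by -0.39. No p is attached to the differences between sets, since the members were chosen with results known.

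**Figure D3:**
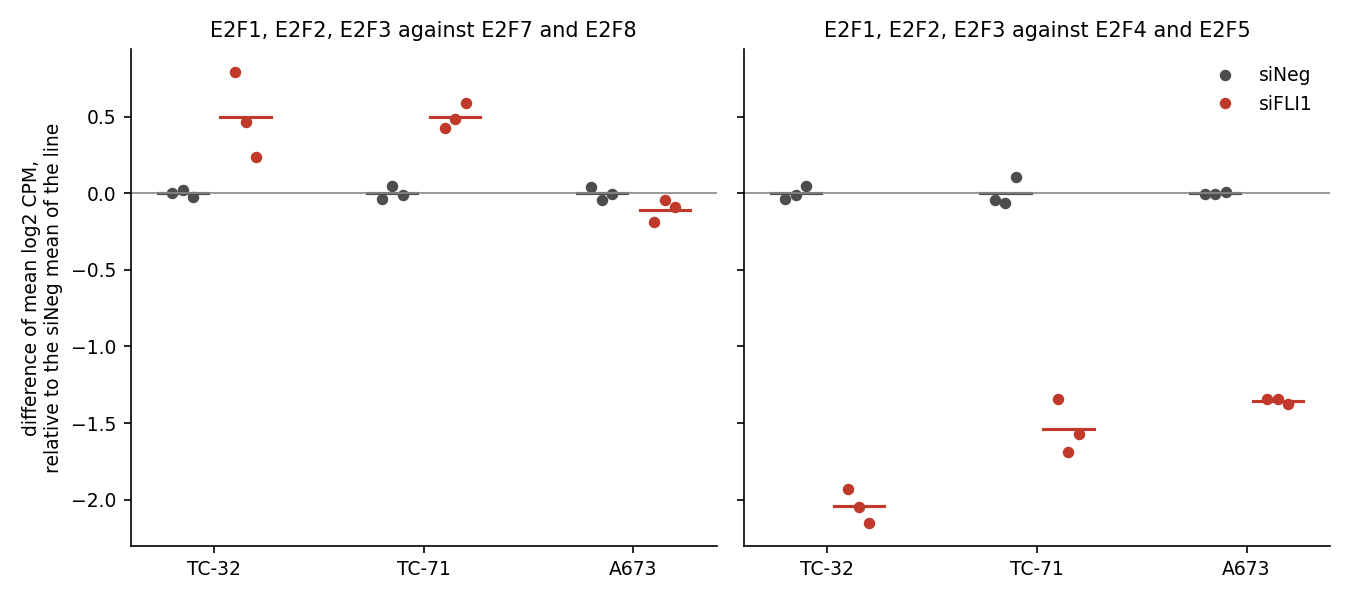
Mean log2 CPM of E2F1, E2F2 and E2F3 minus that of the repressors, relative to the siNeg mean of the line, in each library of TC-32, TC-71 and A673. Against E2F4 and E2F5 all siFLI1 libraries lie below siNeg (means -2.04, -1.54 and -1.35), and against E2F7 and E2F8 those of TC-32 and TC-71 lie above and those of A673 below.

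Per length of exon, the activators as a set lost share of the E2F transcript pool, and E2F4 and E2F5 together gained it in each line. In siFLI1, E2F4 and E2F5 held more than the activators in TC-32, while in TC-71 and A673 both shares overlapped between libraries. Levels were divided by the length of all annotated exons of the gene, merged, in GENCODE 44. That length may exceed that of the transcripts expressed, so shares and ranks between genes depend on it. Levels are not tested across lines because the tables were quantified separately. Activators held 60.1% ± 0.420 of the summed CPM per kb of the 7 E2F genes in TC-32 siNeg and 33.6% ± 2.46 in siFLI1 (SD, n = 3). They held 64.3% ± 0.787 and 47.0% ± 1.23 in TC-71, and 61.1% ± 0.317 and 44.4% ± 0.566 in A673. The share of E2F4 and E2F5 grew in turn. In the same order of lines, E2F4 and E2F5 together went from 28.1% to 62.9%, from 22.5% to 46.7% and from 25.5% to 46.1%. E2F7 and E2F8 went from 11.8% to 3.52%, from 13.2% to 6.29% and from 13.4% to 9.47%. The pool itself shrank, from 97.1 to 29.3, from 106 to 46.3 and from 105 to 68.9 CPM per kb, so a larger share is not a higher level. The class sums hide single genes. E2F3, an activator, kept 50.6% (TC-32), 76.3% (TC-71) and 78.3% (A673) of its siNeg level. E2F3 fell less than the pool in each line, so its own share rose. In TC-32, the gain of E2F4 and E2F5 lay mostly in E2F4, at 19.5 CPM per kb in siNeg and 15.8 in siFLI1. E2F5 went from 7.75 to 2.59 CPM per kb there, close to the fall of the pool. In the pocket protein pool, RBL1 lost share and RB1 gained it in each line, while RBL2 went both ways. RBL1 went from 23.6% to 9.07%, from 32.8% to 13.4% and from 29.6% to 22.8%, and RB1 from 20.9% to 28.0%, from 30.9% to 40.0% and from 41.0% to 49.6%. The share of RBL2 rose from 55.5% to 63.0% in TC-32 and from 36.2% to 46.6% in TC-71, and fell from 29.4% to 27.6% in A673.

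**Figure D4:**
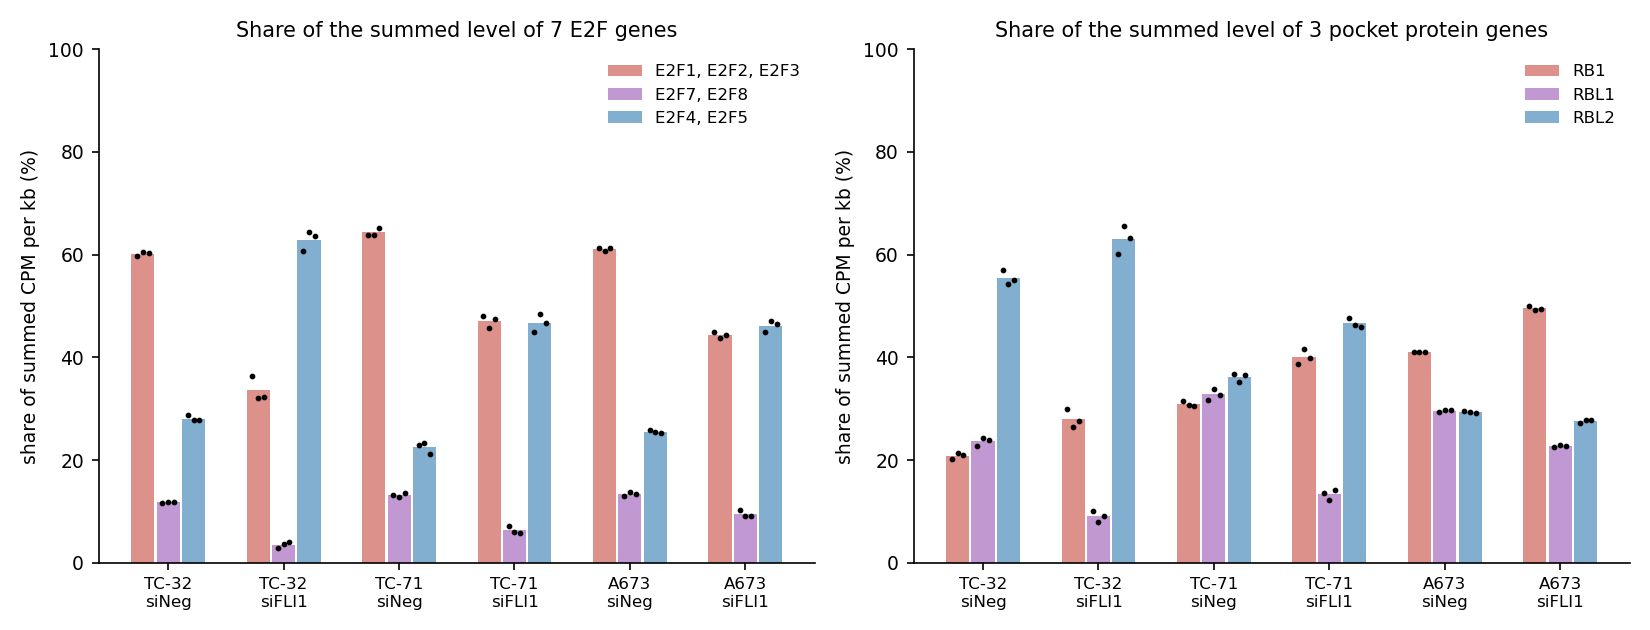
Share (%) of the summed CPM per kb held by each class of E2F and by each pocket protein gene, per line and siRNA, with bars for means and points for the 3 libraries. Activators hold 60.1%, 64.3% and 61.1% of the E2F pool in siNeg and 33.6%, 47.0% and 44.4% in siFLI1 of TC-32, TC-71 and A673.

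Ranks by level per kb rest on the same merged exon lengths. By that measure, E2F1 stood first in siNeg of each line, at 26.2 (TC-32), 38.2 (TC-71) and 36.7 (A673) CPM per kb, and E2F8 last, at 4.22, 6.18 and 5.15. In siFLI1, E2F4 stood first in each line, at 15.8, 14.6 and 24.1 CPM per kb. The last place was held by E2F8 in TC-32 (0.375) and A673 (2.57), and in TC-71 by E2F7 (1.38), whose libraries overlapped those of E2F8 (1.53). Neighbours that overlapped in siNeg were E2F4 with E2F2 and E2F5 with E2F7 in TC-32, E2F3 with E2F2 and the run RBL2, RBL1, E2F7 and RB1 in TC-71, and E2F3 with RB1 and RBL1 with RBL2 in A673. In siFLI1, neighbours overlapped in TC-71 only: RBL2, E2F1, RB1 and E2F5 in a run, RBL1 with E2F2, and E2F8 with E2F7.

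Genes that work with the members moved in several directions. Their counts stand beside 81.4%, 71.9% and 71% of all genes called (TC-32, TC-71, A673), split near evenly between higher and lower, and are to be read against that background. Of the DP partners and E2F6, TFDP1, the main DP subunit, changed by -1.28 (TC-32), -1.11 (TC-71) and -0.10 (A673), and passed the test in each, although the A673 call was lost with the replicate number as a block (edgeR adjusted p = 0.0779) and without siNeg 1, siNeg 2 or siFLI1 3 (0.0514 to 0.0663). TFDP2 rose in TC-32 and TC-71 (0.79 and 0.46) and stood at -0.07 in A673, where it was called lower with library size alone (-0.17, edgeR adjusted p = 0.00471) and without siFLI1 1 (-0.10, adjusted p = 0.0306). E2F6, a repressor that acts without pocket proteins, fell in TC-32 (-0.83) and TC-71 (-0.30) and stood at -0.08 in A673. Of 7 genes of the MuvB core and its MYB partners, 5 fell and 1 rose in TC-32, 6 and 0 did so in TC-71, and 4 and 2 in A673. MYBL2, which joins MuvB to activate mitotic genes, fell in each, at -3.15 (TC-32), -2.21 (TC-71) and -1.38 (A673), while MYBL1 stood at -0.12 in TC-32 without passing the test, fell in TC-71 (-1.07) and rose in A673 (2.34). LIN37, a MuvB subunit, rose in TC-32 (0.49), stood at 0.02 in TC-71 and rose in A673 (0.19), a call lost with library size alone (0.09, edgeR adjusted p = 0.262) and without any 1 of siNeg 1, siNeg 3, siFLI1 2 and siFLI1 3 (0.0566 to 0.0960). LIN54 fell in TC-32 (-0.71) and TC-71 (-0.60) and stood at 0.12 in A673. The kinase list, whose products inactivate pocket proteins, had 7 of 9 genes lower and 1 higher in TC-32, 5 and 1 of 9 in TC-71, and 3 and 4 of 8 tested in A673. CCND1, which encodes cyclin D1, changed by -4.32 (TC-32), -2.39 (TC-71) and -1.77 (A673), and CDK6, its kinase, rose by 1.58, 0.33 and 0.78. CCNE1, which encodes cyclin E1, fell in TC-32 (-1.80), stood at -0.18 in TC-71 without passing the test and rose in A673 (0.79). CCNE2, its relative, fell in TC-32 (-3.04) and TC-71 (-2.08) and stood at 0.04 in A673. CDK4 fell in TC-32 and TC-71 (-0.84 and -0.24) and rose in A673 (0.17), the rise being lost with library size alone (0.06, edgeR adjusted p = 0.150). CCND3 fell in TC-32 (-0.48), stood at 0.11 in TC-71 and rose in A673 (0.28). CCND2 stood at 0.44 and -0.21 in TC-32 and TC-71 without passing the test.

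The inhibitors of those kinases held calls in both directions, and tests of differences between lines are not reported here for them. In TC-32, 4 of 6 tested rose and 2 fell, in TC-71 4 of 7 rose and 2 fell, and in A673 1 of 5 rose and 4 fell, against the same background of 81.4%, 71.9% and 71% called. CDKN1A, which encodes p21, rose in each, at 3.18 (TC-32), 2.25 (TC-71) and 1.06 (A673). CDKN1C, which encodes p57, rose in TC-32 (3.70) and TC-71 (0.66) and fell in A673 (-1.22). The TC-71 rise was lost in DESeq2 (adjusted p = 0.0532) and without siNeg library 3 or siFLI1 library 3 (edgeR adjusted p = 0.0871 and 0.0548). CDKN1B, which encodes p27, rose in TC-32 (0.16), a call lost without siNeg library 2 or 3 or siFLI1 library 2 (edgeR adjusted p = 0.103, 0.0534 and 0.0767), stood at 0.01 in TC-71 and fell in A673 (-0.85). CDKN2D, which encodes p19, had the lowest value in TC-32 (-1.22) and TC-71 (-0.81). CDKN2A and CDKN2B, at 0 counts in all 6 A673 libraries, could not be compared there. In TC-71, CDKN2B stood at 0.0743, 0.152 and 0.0694 CPM in siNeg and 13.8, 15.9 and 14.8 CPM in siFLI1, and no fold is given because the siNeg libraries held at most 3 counts.

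The targets of the family fell in each line. All 20 G1/S genes were lower in each line, against 40.1%, 35% and 35.4% of all genes, with medians of -2.95, -1.88 and -0.83, and 20, 19 and 3 of them fell at least 2-fold, against 15.6%, 9.38% and 9.87% of all genes, so that the A673 count is close to the background. CDC45, a helicase subunit, had the largest fall in TC-32 (-3.83) and CDT1, a licensing factor, in TC-71 (-2.41). The smallest were UNG in TC-32 (-1.36) and SLBP in TC-71 (-0.74) and A673 (-0.11), the last lost under RLE factors (edgeR adjusted p = 0.0597), a mean of at least 10 counts (0.0511), DESeq2 (0.0548), the replicate number as a block (0.0969) and without any 1 A673 library other than siFLI1 1 (0.0803 to 0.224). All 15 G2/M genes, bound by DREAM in resting cells and switched on by FOXM1 and MYBL2, were lower too, with medians of -3.15, -1.81 and -1.24. Of these, 15, 15 and 13 fell at least 2-fold, against the same 15.6%, 9.38% and 9.87% of all genes. BUB1 had the largest fall in TC-32 (-3.41), AURKB in TC-71 (-2.17) and NUSAP1 in A673 (-1.56), and the smallest were those of KIF23 in TC-32 (-2.62) and of CCNB1 in TC-71 (-1.45) and A673 (-0.71). The lists were chosen with results of these libraries known, so their direction is a description.

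**Figure D5:**
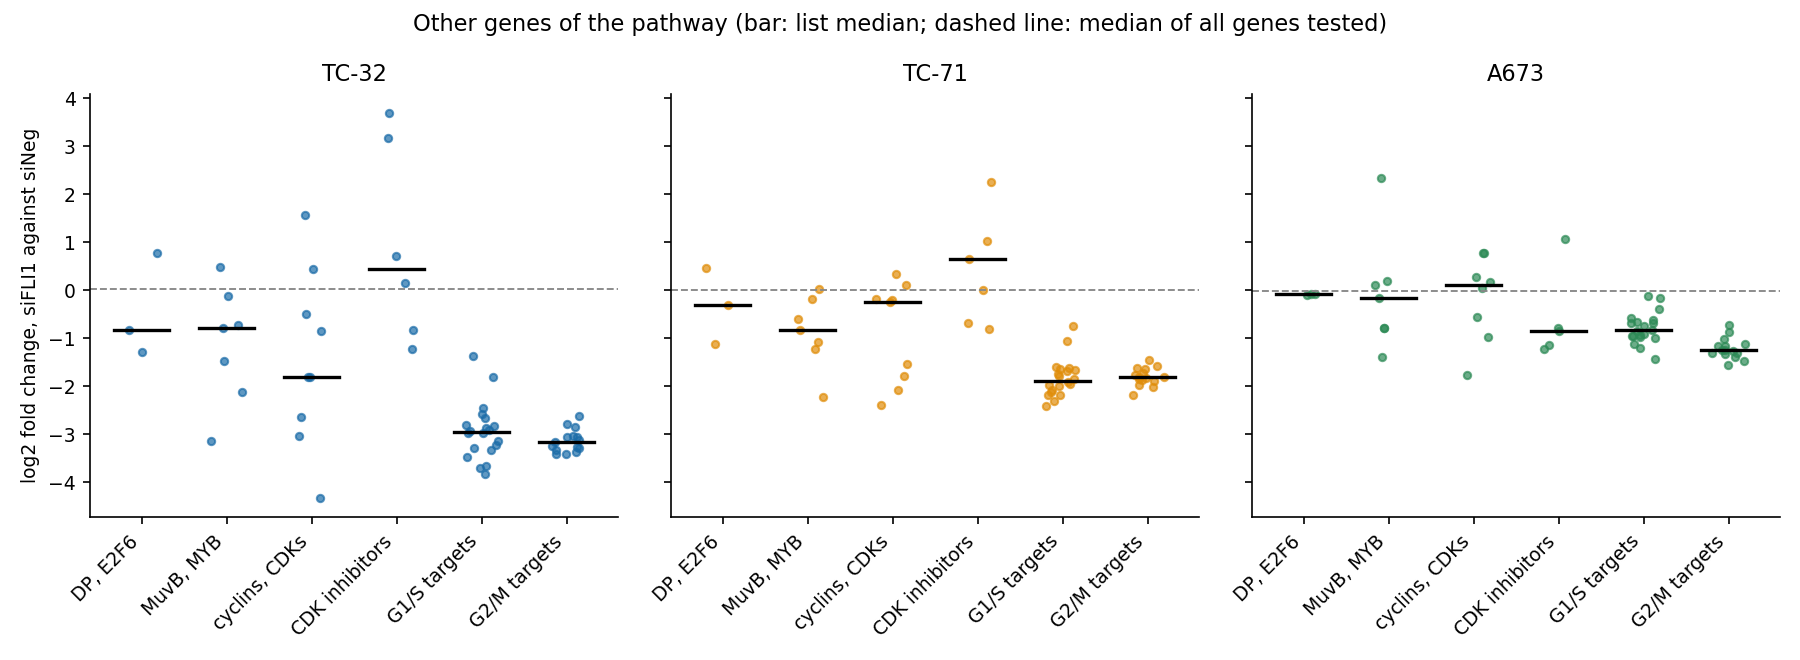
Log2 fold change, siFLI1 against siNeg, of each tested gene of 6 pathway lists in the 3 lines, with a bar for the list median and a dashed line for the median of all genes tested. The G1/S and G2/M lists lie wholly below 0, with medians of -2.95 and -3.15 in TC-32 and -0.83 and -1.24 in A673, while kinase and inhibitor genes spread to both sides and CDKN2B in TC-71, though in its list's median, is not drawn.

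Likeness of pattern was measured by Pearson's r of log2 CPM, centred on each line's mean, over 18 libraries and 10874 genes, as a description, since the libraries share the siRNA contrast. The genes most like E2F1 were SPC24 (r = 0.998), CDCA5 (0.998) and KIF18B (0.998), all known from mitosis. Those most like E2F8 were UBE2C (0.997), EXO1 (0.996) and UMPS (0.996). For RBL2 they were RP11-113K21.5 (0.986), CEP44 (0.984) and NLGN4X (0.984). Among members, E2F1 was most like E2F8 (0.993), E2F7 (0.989), E2F2 (0.984) and RBL1 (0.976), and least like RBL2 (0.773), RB1 (0.556) and E2F4 (0.213). E2F3 (0.965) and E2F5 (0.928) lay between.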

How the data were processed

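Messenger RNA of 18 libraries (3 lines, 2 siRNAs, 3 replicates) was sequenced. The authors deposited counts for TC-71, credited to Subread by the table's name, and expected counts for both other lines, credited to RSEM. Tools named per the submitters' processing notes are cutadapt 4.4, STAR 2.7.3, featureCounts, Subread 2.0.3 and limma 3.38.3, with GRCh38. The annotation release, strand setting and filters are not given in the sources used here.

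Expected counts were rounded. Within each line, edgeR 4.0.16 in R 4.3.3 tested siFLI1 against siNeg (filterByExpr, TMM, robust quasi-likelihood F-test), with Benjamini-Hochberg adjustment over all genes tested. Differences between lines were interaction contrasts over all libraries. Log2 fold changes carry a prior count of 0.125, and activator and repressor means one of 0.5. Counting error limits low values: 0 counts allow up to 3. The procedure was tested on simulated data in which few genes changed, equally up and down. Most genes were called in the real data, so that setting does not cover them. Loci and exonic lengths are from GENCODE 44, matched by identifier, and start sites from RefSeq.

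The members and gene lists were chosen with earlier results of these data known. The text names FLI1, the members, and in each list the genes with the highest or lowest log2 fold change or with opposite signs between lines, plus E2F6, chosen after its values were seen; it also names the 3 genes most like E2F1, E2F8 and RBL2. The largest G1/S fall in A673, which the rule would name, is not reported here. Pool shares and the promoter letters were chosen after values or sequences were seen. Alternatives tried were DESeq2 1.42.0, limma-voom (limma 3.58.1), RLE factors, unrounded expected counts, library size alone, filters of none or of a mean of at least 10 counts, only the 12 libraries of the lines compared, a replicate block, leaving out each library, summed CPM and a prior count of 2.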

Additional observations from a re-analysis of the deposited data

Results flagged for a closer look

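The response to siFLI1 was unequal between lines, by edgeR interaction contrasts adjusted over 19610 genes, for the members below. Each value is the log2 fold change of the first line minus that of the second. For TC-32 minus A673 the difference was -2.64 for E2F1, -2.06 for E2F2, -0.61 for E2F3, -0.63 for E2F4, -1.54 for E2F5, -2.26 for E2F7, -2.47 for E2F8 and -1.28 for RBL1. For TC-32 minus TC-71 it was -1.50 for E2F1, -1.59 for E2F2, -0.61 for E2F3, -0.42 for E2F4, -1.03 for E2F5, -0.96 for E2F7, -1.46 for E2F8, -0.34 for RBL1 and -0.42 for RBL2. For A673 minus TC-71 it was 1.14 for E2F1, 0.46 for E2F2, 0.21 for E2F4, 0.50 for E2F5, 1.30 for E2F7, 1.01 for E2F8, 0.94 for RBL1 and -0.42 for RBL2. Differences of this kind were called for 62.1%, 53.6% and 51.6% of all genes. Depth was higher in A673, TC-71 was counted with another tool, and the part of either in these differences was not tested.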

How the results depend on the processing

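Depth limits the lowest values: the smallest member count was 39. In each line, members called lower stayed within 9 to 10 (TC-32), 7 (TC-71) and 7 to 9 (A673) under every setting run. Leaving out libraries, members called higher in TC-71 ran from 0 to 1. On summed CPM, activators minus E2F7 and E2F8 moved to 1.09 (TC-32), 0.84 (TC-71) and 0.064 (A673), reversing the last, and activators minus E2F4 and E2F5 to -1.70, -1.25 and -1.27. Leaving out libraries, the first ran from 0.35 to 0.63, 0.46 to 0.54 and -0.14 to -0.067, the second from -2.10 to -1.99, -1.63 to -1.46 and -1.36 to -1.34. Values near 0 that turned sign, none past the test, were CDKN1B in TC-71 (RLE factors -0.0036, library size alone -0.0064, no filter -0.00074, DESeq2 -0.0036), RB1 in TC-32 minus A673 (library size alone 0.0017), RBL2 in TC-32 minus A673 (12 libraries -0.063), E2F3 in A673 minus TC-71 (library size alone -0.057, mean of at least 10 counts -0.011, limma-voom -0.0021) and RB1 in A673 minus TC-71 (12 libraries 0.0013). Leaving out libraries, values that turned sign without passing the test ran from -0.29 to 0.0054 (MYBL1, TC-32), -0.048 to 0.019 (RB1, TC-71), -0.027 to 0.033 (CDKN1B, TC-71), -0.070 to 0.091 (LIN37, TC-71), -0.044 to 0.0071 (E2F5, A673), -0.024 to 0.039 (RBL2, TC-32 minus A673) and -0.052 to 0.029 (E2F3, A673 minus TC-71). The cause was not tested. Library size alone moved the share of higher calls in A673 from 50.1% to 40.9% and the all-gene median to -0.11. With no filter the median was 0.21 in TC-32 and 0.10 in TC-71. Same-numbered libraries did not deviate together (correlations from -0.205 to 0.0531). The labels do not say whether they were prepared together, and this check cannot show it. With the replicate block, genes called were 13053, 12048 and 12467 in TC-32, TC-71 and A673, against 13203, 12283 and 13096, and E2F4 in A673 minus TC-71 became 0.20 (edgeR adjusted p = 0.0600).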
